A study of Mus musculus with 6 samples.

Results

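Perilipins, triglyceride-synthesis enzymes, droplet lipases and the proteins that regulate those lipases were examined in 6 RNA-sequencing libraries of mouse T cells. The set holds 10 genes of the 18046 listed in each library, chosen by gene symbol for their role in lipid droplets: Plin2, Plin3, Hilpda, Dgat1, Dgat2, Pnpla2, Abhd5, G0s2, Lipe and Mgll. The set was put together after the LPC against vehicle results of these libraries were known, so its values are given as a description and the calls below are no independent test of the set. All 10 symbols were found, and 9 passed the filter on low values, G0s2 being the one that did not.

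The cells were naive CD4+ T cells of C57BL/6 mouse spleen, labelled as 3 weeks of age, cultured for 3 days with antibodies against CD3 and CD28 under conditions that favour the T helper 1 fate. Of the 6 libraries, 3 are of cells given 20 µM LPC and 3 of cells given the vehicle. The labels spell out neither LPC nor the vehicle. They also leave unsaid which animals or cultures the replicates represent, so each p-value reflects a spread among libraries that may be technical. The question asked by the design is how LPC alters gene expression as these cells become T helper 1 cells.

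Lipid droplets store fatty acids as triglyceride and sterol ester inside a phospholipid shell that is coated with proteins. The last step of triglyceride synthesis is made by the diacylglycerol acyltransferases encoded by Dgat1 and Dgat2. Stored triglyceride is released stepwise: adipose triglyceride lipase (Pnpla2) removes the first fatty acid, hormone-sensitive lipase (Lipe) acts on the diglyceride, and monoglyceride lipase (Mgll) on the monoglyceride. Abhd5 encodes the coactivator of adipose triglyceride lipase, and G0s2 and Hilpda encode small proteins that inhibit it. Perilipin 2 (Plin2) is the coat protein of droplets in most cells outside fat tissue and is degraded when it is not bound to a droplet, and perilipin 3 (Plin3) moves from the cytosol onto newly formed droplets.

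The libraries carried high levels of T cell genes. The 10 T cell markers summed to 2110 to 2230 FPKM in LPC libraries and to 2160 to 2230 FPKM in vehicle libraries, where FPKM is fragments per kilobase of transcript, scaled to the mapped reads of the library. Of the 2 CD8 T cell markers, Cd8a did not exceed 0.33 FPKM in any library, whereas Cd8b1 averaged 11.7 ± 1.03 FPKM with LPC and 13.8 ± 0.42 FPKM with vehicle (SD, n = 3 each), with no overlap (log2 change -0.22, limma adjusted p = 0.142). Of the 7 macrophage and monocyte markers, which matter here because macrophages store neutral lipid, 6 stayed under 1 FPKM in every library. Their sum was 3.56 to 5.04 FPKM in LPC libraries and 3.67 to 5.75 FPKM in vehicle libraries, nearly all of it Cd68, while Csf1r did not exceed 0.01 FPKM. The 5 adipocyte markers summed to at most 0.15 FPKM in LPC libraries and 0.04 FPKM in vehicle libraries, with Cidec at 0 in all 6. Some other marker sums also did not overlap between the groups. The 6 dendritic cell markers summed to 1.30 to 1.64 FPKM with LPC and 2.87 to 2.94 FPKM with vehicle. Nearly all of it was Zbtb46, which fell (1.38 ± 0.185 FPKM with LPC and 2.82 ± 0.0839 FPKM with vehicle, log2 change -0.68, limma adjusted p = 0.00139), while Itgax averaged 0.0433 FPKM with LPC and 0.00333 FPKM with vehicle. The 6 B cell markers summed to 0.60 to 0.95 FPKM with LPC and 1.15 to 1.21 FPKM with vehicle, and the 4 platelet markers to 0.39 to 0.45 FPKM with LPC and 0.49 to 0.56 FPKM with vehicle. Higher with LPC were the sums of the 4 erythroid markers (0.29 to 0.62 FPKM with LPC and 0.15 to 0.23 FPKM with vehicle) and the 3 NK cell markers (0.06 to 0.17 FPKM with LPC and 0 to 0.02 FPKM with vehicle). The NK cell sum was nearly all Klre1, and each erythroid marker alone overlapped between the groups. The macrophage gene Lyz2 was at 0.15 to 0.30 FPKM with LPC and at 0 to 0.05 FPKM with vehicle. Mrc1, of the same list, was at 0.20 to 0.24 FPKM with LPC and at 0.12 to 0.16 FPKM with vehicle. These erythroid, NK cell and macrophage values are near the floor. The part of the markers in the results was not tested. FPKM sums ranged from 562046 to 641026 in LPC libraries and from 556561 to 588274 in vehicle libraries. The highest sum was that of LPC replicate 3, which also lay farthest out on the first principal component (-21.1, against -10.8 and -3.03 for the other LPC libraries and 8.43 to 15.8 for vehicle libraries), so the main changes are also given without it. Depth was estimated from the spacing of low values at 19.0 to 19.5 M reads per library. In bulk RNA, fewer cells of a type and less RNA per cell cannot be told apart.

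Plin2, Hilpda and Mgll were the 3 members whose FPKM was higher in every LPC library than in any vehicle library, a pattern that 13.7% of all tested genes showed, and the sequence next to their annotated starts is shown for that reason. The sequences are from RefSeq on GRCm38.p6, 5′ to 3′ on the gene's strand, and leave out bases that lie within the annotated gene. For Plin2 the 92 bases span chr4:86670218-86670309 on the minus strand, for Hilpda the 250 bases span chr6:29272238-29272487 on the plus strand, and for Mgll the 250 bases span chr6:88724162-88724411 on the plus strand. Capitals mark ACGTG or GCGTG, the core letters of hypoxia response elements, and AGGTCA, the core letters bound by PPAR and other nuclear receptors, on either strand.
Plin2: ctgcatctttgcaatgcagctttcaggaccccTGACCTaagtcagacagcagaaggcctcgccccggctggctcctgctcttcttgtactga
Hilpda: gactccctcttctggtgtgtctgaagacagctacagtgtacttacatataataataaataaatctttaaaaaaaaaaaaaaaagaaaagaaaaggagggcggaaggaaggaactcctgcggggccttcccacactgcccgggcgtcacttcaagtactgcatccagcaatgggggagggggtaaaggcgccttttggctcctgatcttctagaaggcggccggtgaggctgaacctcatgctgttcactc
Mgll: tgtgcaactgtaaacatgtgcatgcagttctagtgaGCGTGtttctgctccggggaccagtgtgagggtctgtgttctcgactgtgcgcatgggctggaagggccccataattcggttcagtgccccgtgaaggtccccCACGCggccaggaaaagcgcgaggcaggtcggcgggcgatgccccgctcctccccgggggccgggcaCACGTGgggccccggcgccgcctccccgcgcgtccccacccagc

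The Plin2 stretch held 1 nuclear receptor core on the reverse strand, 218 bases before the RefSeq start that its window precedes. That start lies within the annotated gene, so the core is nearer to the gene's outer end than this. The Mgll stretch held GCGTG on one strand and, farther on, its complement CACGC, and also the palindrome CACGTG, which reads as ACGTG on both strands. The Hilpda stretch held none of these letters, but RefSeq lists another Hilpda start downstream, and the window before that one held ACGTG 43 bases ahead of the start and GCGTG at 111 and 8 bases. The part of the Plin2 window that lies within the annotated gene, not printed here, held GCGTG 86 bases before the same Plin2 start. In the window of 250 bases before every start in the RefSeq table, 38.6% of 32851 windows held ACGTG or GCGTG and 14.0% held AGGTCA, so these matches are common. Such letters were not limited to the members that rose: 6 of the 8 members with a window held a hypoxia core in one, among them Lipe, Abhd5 and G0s2, and Abhd5 also held AGGTCA. This count is of genes, some with several windows, and so cannot be set directly against the 38.6%, a share of windows. The direct repeat of AGGTCA with 1 base of any kind between the copies, on which PPAR binds with its partner RXR, was in 0.0335% of windows and in none of the 11 windows of the 8 members that have one. Only exact copies in these windows were searched. A repeat this rare is seldom met in 11 windows, so nothing is read from its absence.

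The levels of the 10 genes differed widely, and all comparisons between genes are of FPKM, which is scaled for length. In LPC libraries the order of mean levels was Pnpla2 (46.9 ± 3.39 FPKM), Dgat1 (36.5 ± 4.37), Hilpda (33.9 ± 5.92), Plin2 (27.2 ± 1.80), Plin3 (13.0 ± 0.163), Mgll (11.7 ± 0.398), Lipe (9.02 ± 1.22), Abhd5 (3.35 ± 0.221), Dgat2 (1.47 ± 0.305) and G0s2 (0.400 ± 0.0781; SD, n = 3 each). Among these, the libraries of Dgat1 and Hilpda overlapped, as did those of Hilpda and Plin2, and the other neighbours did not. In vehicle libraries it was Pnpla2 (46.5 ± 1.32 FPKM), Dgat1 (33.3 ± 1.25), Hilpda (19.0 ± 1.37), Plin3 (12.5 ± 0.510), Plin2 (12.2 ± 0.307), Lipe (10 ± 0.586), Mgll (7.98 ± 1.40), Abhd5 (3.44 ± 0.101), Dgat2 (1.11 ± 0.127) and G0s2 (0.420 ± 0.135; SD, n = 3 each). Here only Plin3 and Plin2 overlapped. With LPC, Plin2 thus stood above Plin3, and Mgll above Lipe.

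**Figure D1:**
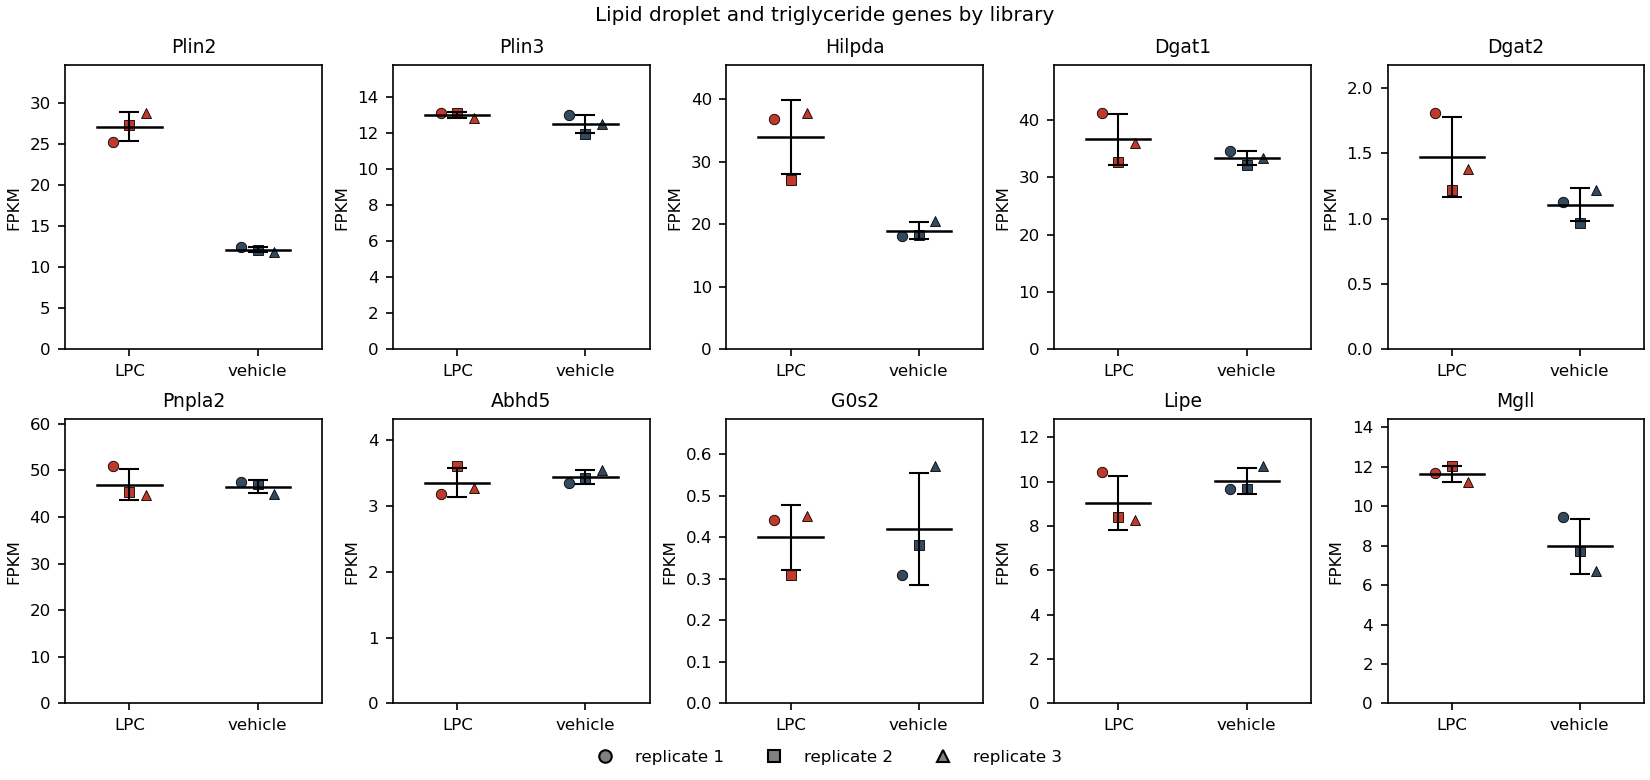
FPKM of each of the 10 genes in the 3 LPC and 3 vehicle libraries, on axes that start at 0, with the marker shape giving the replicate number and bars the mean and SD. The 3 LPC libraries lie above the 3 vehicle libraries for Plin2, Hilpda and Mgll, and the groups overlap for the other 7 genes.

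Of the droplet coat genes, Plin2 rose with LPC and Plin3 did not pass the test. Plin2 was listed at 25.3, 27.4 and 28.9 FPKM in LPC replicates 1 to 3, against 12.5, 12.1 and 11.9 FPKM in vehicle replicates 1 to 3. Each LPC library held more than each vehicle library, and the lowest LPC value exceeded the highest vehicle value by more than the whole range within either group. The ratio of the means was 2.23, and on the scale of log2(FPKM + 1), which understates changes of low genes, the change was 1.10 (SE 0.09, 95% interval 0.90 to 1.29, limma adjusted p = 1.8e-05 over all tested genes). Without LPC replicate 3 it was 1.05 (adjusted p = 1.9e-05). By size of rise Plin2 ranked 10 among the 10138 tested genes. Plin2 lies on chromosome 4 at 86626910 to 86670217.

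Plin3 was listed at 13.1, 13.1 and 12.8 FPKM in LPC libraries, against 13.0, 12.0 and 12.5 FPKM in vehicle libraries. The groups overlapped, and the log2 change of 0.06 had an interval of -0.13 to 0.25 (limma adjusted p = 0.705). Its coefficient of variation was 1.25% with LPC, the lowest of the 10 genes, and 4.09% with vehicle, where Plin2, Pnpla2, Abhd5 and Dgat1 varied less (2.52% to 3.76%). The other perilipin genes were nearly silent: Plin4 and Plin5 were at 0 in all 6 libraries, and Plin1, the perilipin of fat cells, averaged 0.0200 FPKM with LPC and was at 0 with vehicle.

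Among the regulators of adipose triglyceride lipase, the inhibitor gene Hilpda rose, while the lipase gene Pnpla2 and the coactivator gene Abhd5 did not pass the test. Hilpda was listed at 36.9, 27.1 and 37.8 FPKM in LPC libraries, against 18.2, 18.2 and 20.6 FPKM in vehicle libraries. LPC replicate 2 was the lowest of its group, and still above every vehicle library. The ratio of the means was 1.78 and the log2 change 0.79 (SE 0.12, interval 0.54 to 1.05, limma adjusted p = 0.00164), and 0.71 without LPC replicate 3 (adjusted p = 0.00229). Hilpda lies on chromosome 6 at 29272488 to 29275449.

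Pnpla2 was listed at 50.8, 45.3 and 44.7 FPKM in LPC libraries, against 47.5, 47.1 and 45.0 FPKM in vehicle libraries. LPC replicate 1 was the highest of all 6 and LPC replicate 3 the lowest, so the LPC range enclosed the vehicle range, and the log2 change of 0.01 had an interval of -0.18 to 0.20 (limma adjusted p = 0.951). Its sign was negative with quantile normalization and once trends with GC and length were removed (-0.06), and that of Abhd5 positive with those scalings and with median centring. Abhd5 was listed at 3.18, 3.60 and 3.27 FPKM in LPC libraries, against 3.35, 3.42 and 3.55 FPKM in vehicle libraries, with an interval of -0.24 to 0.17 around a log2 change of -0.03 (adjusted p = 0.861). The other inhibitor gene, G0s2, was listed at 0.440, 0.310 and 0.450 FPKM in LPC libraries, against 0.310, 0.380 and 0.570 FPKM in vehicle libraries, overlapping groups that rest on an estimated 5 to 7 and 5 to 10 reads. It was not tested; with no filter on low values its log2 change was -0.02 (interval -0.20 to 0.16). This interval is on the scale of log2(FPKM + 1), which understates changes of so low a gene, and is not an interval for its fold change. With so few reads a change of G0s2 could be missed.

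Of the lipases that act after adipose triglyceride lipase, Mgll rose and Lipe did not pass the test. Mgll, whose product also degrades the endocannabinoid arachidonoylglycerol, was listed at 11.7, 12.0 and 11.2 FPKM in LPC libraries, against 9.48, 7.73 and 6.72 FPKM in vehicle libraries. The LPC libraries were close together (coefficient of variation 3.42%) and the vehicle libraries spread more widely (17.5%), with no overlap between them. The ratio of the means was 1.47 and the log2 change 0.51 (SE 0.11, interval 0.26 to 0.75, limma adjusted p = 0.0118), and 0.53 without LPC replicate 3 (adjusted p = 0.0119). Mgll did not pass without LPC replicate 1 (log2 change 0.50, adjusted p = 0.0506) or with no filter on low values (0.51, adjusted p = 0.0723), and its adjusted p ranged from 8.1e-04 to 0.0723 over the alternatives.

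Lipe was listed at 10.4, 8.39 and 8.25 FPKM in LPC libraries, against 9.68, 9.65 and 10.7 FPKM in vehicle libraries. LPC replicates 2 and 3 lay below all vehicle libraries and LPC replicate 1 among them. Its log2 change was -0.14 (interval -0.37 to 0.09, limma adjusted p = 0.392), the lowest of the 9 tested members. Mgll lies on chromosome 6 at 88724412 to 88828360 and Lipe on chromosome 7 at 25379527 to 25398486.

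Neither gene of the last step of triglyceride synthesis passed the test. Dgat1 was listed at 41.2, 32.6 and 35.9 FPKM in LPC libraries, against 34.5, 32.0 and 33.3 FPKM in vehicle libraries. Only LPC replicates 1 and 3 lay above the vehicle range, and the log2 change of 0.13 had an interval of -0.08 to 0.34 (limma adjusted p = 0.406). Dgat2 was listed at 1.81, 1.22 and 1.38 FPKM in LPC libraries, against 1.13, 0.970 and 1.22 FPKM in vehicle libraries. The lowest LPC value equalled the highest vehicle value, and the log2 change was 0.22 (interval -0.01 to 0.46, adjusted p = 0.189). For both genes LPC replicate 1 was highest and LPC replicate 2 lowest of the LPC libraries, and the Dgat2 values rest on an estimated 31 to 46 reads with LPC and 25 to 31 with vehicle.

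Of the 9 tested members, 3 passed at an adjusted p under 0.05 as higher with LPC and 0 as lower, also 3 and 0 at an unadjusted p under 0.05. Over all 10138 tested genes 5.82% passed as higher and 7.91% as lower. With an unadjusted p under 0.05, 1237 of these genes were higher and 1810 lower. LPC libraries all lay above vehicle libraries for 3 of the 9 members, and for 13.7% of all tested genes. Since the set was put together with this contrast in view, nothing is read from these shares. The median log2 change of the 9 tested members was 0.13 and that of all tested genes -0.04. The 6 members that did not pass had log2 changes of -0.14 to 0.22.

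**Figure D2:**
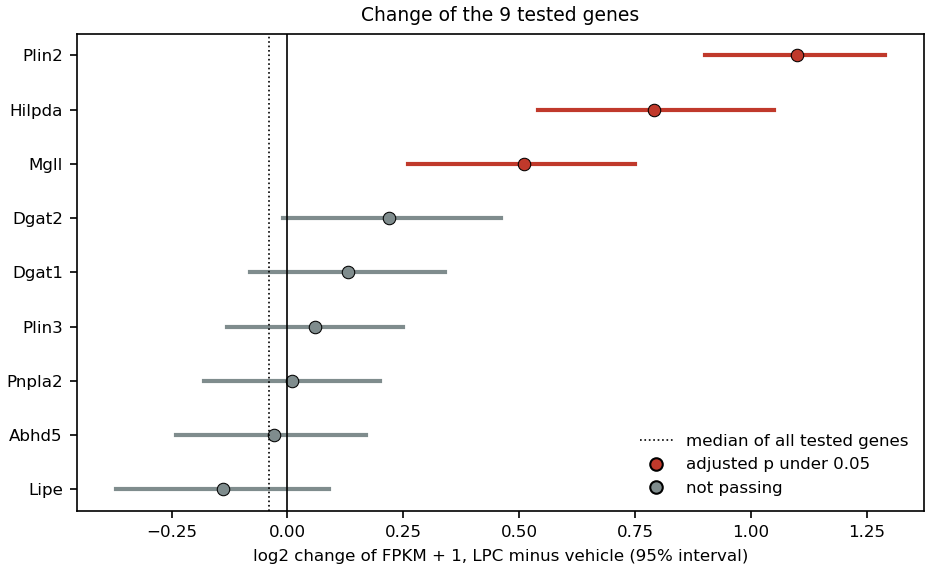
Log2 change of FPKM + 1, LPC minus vehicle, of the 9 tested genes with its 95% interval from the fit over all genes (n = 3 libraries a group). Plin2 (1.10), Hilpda (0.79) and Mgll (0.51) have intervals above 0, and the intervals of the other 6 include 0; the dotted line is the median of all tested genes (-0.04).

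Ratios of 2 genes within a library do not change when the whole library is multiplied by a common factor. Scalings that shift genes by different amounts, such as quantile normalization, can change them. They are given with no test. Plin2 made up 65.8%, 67.6% and 69.2% of the summed perilipin FPKM in LPC libraries, against 49.0%, 50.3% and 48.7% in vehicle libraries. The summed perilipin level, which does depend on library scaling, averaged 40.2 ± 1.68 FPKM with LPC and 24.6 ± 0.731 FPKM with vehicle (SD, n = 3 each). The groups did not overlap for either measure, and the perilipin pool of vehicle libraries was about evenly Plin2 and Plin3.

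For each unit of the 2 inhibitor transcripts together, G0s2 and Hilpda, there were 1.36, 1.65 and 1.17 units of Pnpla2 in LPC libraries, against 2.57, 2.53 and 2.13 in vehicle libraries. Nearly all of the inhibitor sum was Hilpda, which exceeded G0s2 by 83.8 to 87.4 times with LPC and by 36.1 to 58.6 times with vehicle. The ratio of Pnpla2 to its coactivator Abhd5 was 14.1 ± 1.74 with LPC and 13.5 ± 0.771 with vehicle (SD, n = 3 each), with overlapping groups. Mgll stood at 1.12, 1.43 and 1.36 times Lipe in LPC libraries, against 0.979, 0.801 and 0.629 times in vehicle libraries, with no overlap. The Plin2 share, the ratio of Pnpla2 to its inhibitors and that of Mgll to Lipe each set a member that rose beside others that did not. Their separation thus largely restates the rises of Plin2, Hilpda and Mgll. Dgat1 exceeded Dgat2 by 22.8, 26.7 and 26.0 times in LPC libraries, against 30.5, 33.0 and 27.3 times in vehicle libraries; these do not overlap, but the highest LPC ratio (26.7) and the lowest vehicle ratio (27.3) are close.

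**Figure D3:**
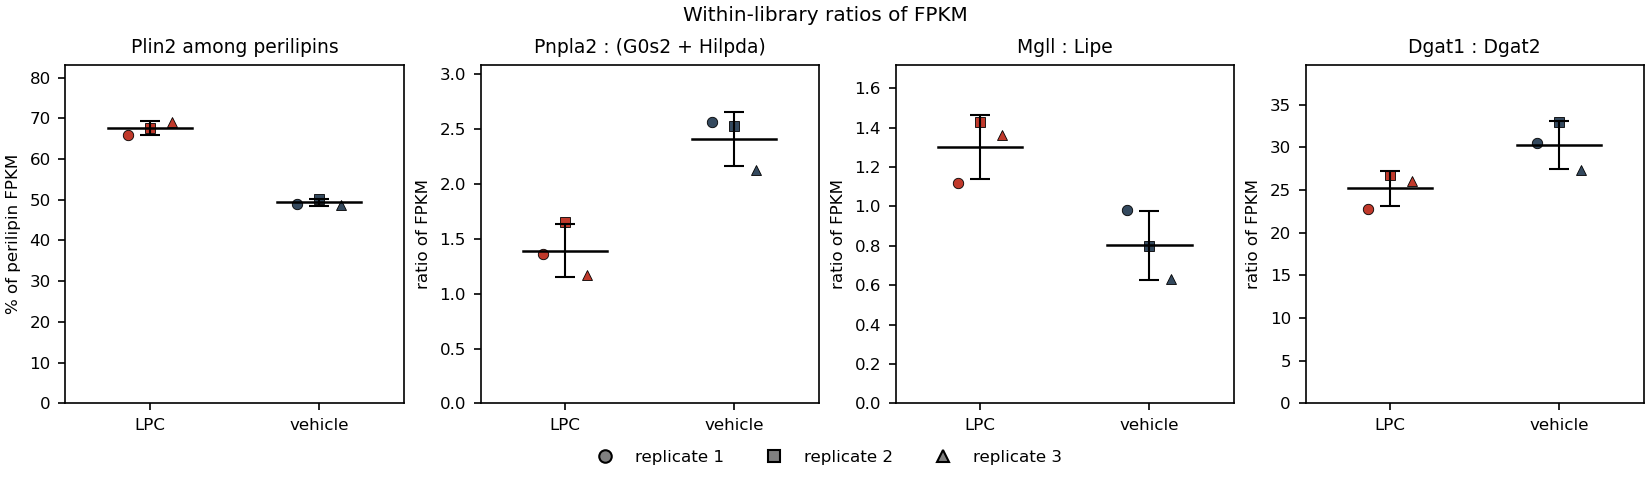
Within-library ratios of FPKM in the 3 LPC and 3 vehicle libraries, on axes that start at 0: the percentage of perilipin FPKM that is Plin2, Pnpla2 over the sum of G0s2 and Hilpda, Mgll over Lipe, and Dgat1 over Dgat2, with bars for the mean and SD. The Plin2 share averages 67.5% with LPC and 49.3% with vehicle, and the Pnpla2 ratio 1.39 with LPC and 2.41 with vehicle. These largely restate the rises of Plin2 and Hilpda.

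The genes whose pattern over the 6 libraries was nearest to that of Plin2 were Upp1, Ccl3, Gatm, Serpine2 and Ncbp2. Likeness was the Euclidean distance between profiles of log2(FPKM + 1) centred over the libraries, among 7782 other tested genes with a mean of 5 FPKM or more. The distance was 0.24 for Upp1, which encodes a uridine phosphorylase, 0.37 for the chemokine gene Ccl3, 0.38 for Gatm, an enzyme of creatine synthesis, 0.40 for the protease inhibitor gene Serpine2 and 0.40 for Ncbp2, a cap-binding protein, against a median of 1.41. Among the members, Hilpda was the nearest to Plin2 (rank 17, distance 0.57), followed by Mgll (rank 109, distance 0.79). Plin3, of the same family, was at rank 2422 (distance 1.28) and Lipe at rank 5743 (1.57). The profiles hold the difference between LPC and vehicle, so genes with a similar log2 change rank near Plin2. The order of the members thus largely restates their log2 changes. The distances carry no test, and shared regulation was not tested.

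The wider lists of neutral lipid genes are read against all tested genes, of which 5.82% passed as higher and 7.91% as lower. At an unadjusted p under 0.05, 1237 of the 10138 tested genes were higher and 1810 lower. The lists are short, and no list is called particular from its count. With no filter on low values, Slc16a3 alone among the list genes named below as having risen or fallen still passed, and the others had an adjusted p of 0.051 to 0.204. Of 21 listed genes for other droplet coats and droplet formation 13 were tested, of which 1 rose and 1 fell. By unadjusted p, 2 were higher and 2 lower, and the list median was -0.11. Tmem159, which encodes the seipin partner LDAF1, averaged 15.1 ± 1.77 FPKM with LPC and 11.9 ± 0.230 FPKM with vehicle (SD, n = 3 each; log2 change 0.32, limma adjusted p = 0.0478). The seipin gene Bscl2 itself was listed at 43.1 ± 4.29 FPKM with LPC and 35.6 ± 2.32 with vehicle and did not pass (0.27, adjusted p = 0.0802). Vps13a, a lipid transfer protein gene, averaged 3.95 ± 0.674 FPKM with LPC and 5.43 ± 0.370 with vehicle (-0.39, adjusted p = 0.0399). Tmem159 did not pass without LPC replicate 2 or 3 or any 1 vehicle library (adjusted p = 0.054 to 0.168), nor Vps13a without LPC replicate 1 or 3 or any 1 vehicle library (0.0699 to 0.142) or with quantile normalization (0.0557).

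Of 16 listed genes of glycerolipid synthesis before the last step and of sterol esterification 14 were tested, of which 0 rose and 1 fell (1 and 3 at an unadjusted p under 0.05), and the list median was -0.14. Among all tested genes 5.82% passed as higher and 7.91% as lower (1237 and 1810 of 10138 at an unadjusted p under 0.05). The gene that fell was Lclat1, an acyltransferase of lysophospholipids, at 12.9 ± 2.10 FPKM with LPC and 16.9 ± 1.58 FPKM with vehicle (log2 change -0.38, limma adjusted p = 0.0461). It did not pass without LPC replicate 1 or 3 or vehicle replicate 1 or 2 (adjusted p = 0.107 to 0.184), nor with quantile normalization (0.0548) or median centring (0.0616). The entry enzyme gene Gpam (-0.22), the phosphatidic acid phosphatase gene Lpin2 (-0.30) and the sterol esterification gene Soat1 (-0.26) did not pass. Agpat2, of the same list, went the other way and did not pass either (0.26, adjusted p = 0.0763). Of the 14 tested genes, 3 had a log2 change above 0 and 11 below 0.

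Of 16 listed genes of other neutral lipid and glyceride hydrolases 12 were tested, of which 1 rose and 1 fell. By unadjusted p under 0.05, 1 was higher and 3 lower, and the list median was -0.08. The shares over all tested genes were 5.82% higher and 7.91% lower (1237 and 1810 of 10138 by unadjusted p). Abhd16a, a phospholipase gene, was listed at 13.5, 9.32 and 13.4 FPKM in LPC libraries, against 8.14, 7.57 and 7.57 FPKM in vehicle libraries (log2 change 0.56, limma adjusted p = 0.0118). It did not pass without LPC replicate 1 (adjusted p = 0.0672). Lipg, which encodes endothelial lipase, averaged 0.997 ± 0.0493 FPKM with LPC and 1.51 ± 0.240 FPKM with vehicle (-0.33, adjusted p = 0.0482), and did not pass when any 1 library was left out (0.0602 to 0.171), with quantile normalization (0.109), with median centring (0.0845) or with GC and length trends removed (0.0756). Lipa, the lysosomal acid lipase gene, did not pass (-0.27, adjusted p = 0.0635).

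Of 17 listed genes of fatty acid uptake, binding and activation 12 were tested, of which 2 rose and 1 fell. By unadjusted p under 0.05, 3 were higher and 2 lower, and the list median was 0.12. Over all tested genes 5.82% passed as higher and 7.91% as lower (1237 and 1810 of 10138 by unadjusted p). The fatty acid binding protein gene Fabp5 was listed at 43.6, 41.0 and 64.9 FPKM in LPC libraries, against 33.0, 32.4 and 33.9 FPKM in vehicle libraries (log2 change 0.55, limma adjusted p = 0.0196). LPC replicate 3 was the highest, and without it the log2 change was 0.35 (adjusted p = 0.0178). Fabp5 did not pass when vehicle replicate 1 was left out (0.0635) or with median centring (0.0505). Dbi, which encodes the acyl-CoA binding protein, averaged 51.1 ± 15.6 FPKM with LPC and 34.6 ± 4.35 FPKM with vehicle (0.52, adjusted p = 0.0475), and its log2 change was 0.28 without LPC replicate 3 (adjusted p = 0.093). Dbi also did not pass without LPC replicate 1 or vehicle replicate 1 or 2 (adjusted p = 0.0898 to 0.136), nor with quantile normalization (0.0762) or median centring (0.0966). Acsl3, an acyl-CoA synthetase found on nascent droplets, averaged 5.08 ± 0.630 FPKM with LPC and 6.65 ± 0.348 FPKM with vehicle (-0.34, adjusted p = 0.047), and did not pass without LPC replicate 1 or 3 or any 1 vehicle library (0.0875 to 0.188) or with quantile normalization (0.0607). The fatty acid transporter gene Cd36 averaged 0.0667 FPKM with LPC and 0.0333 FPKM with vehicle.

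**Figure D4:**
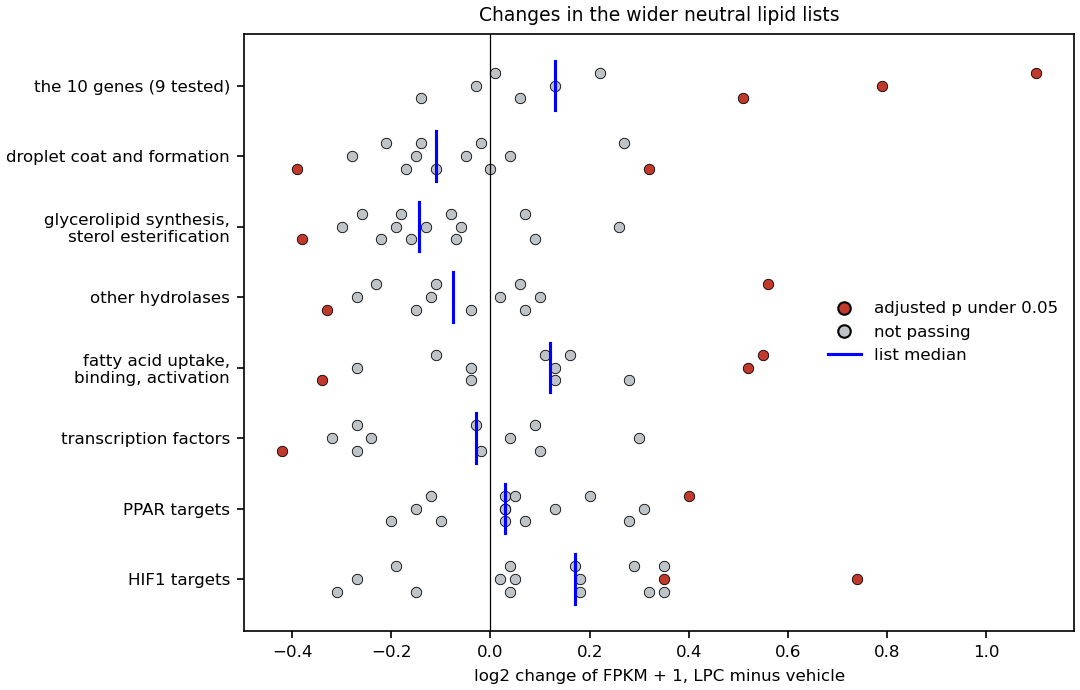
Log2 change of FPKM + 1, LPC minus vehicle, of each tested gene in the set and in 7 wider lists; each point is a gene, red points passed at an adjusted p under 0.05, and the blue bar is the list median. Plin2 (1.10) and Hilpda (0.79) lie to the right of every gene of the other lists, where Slc16a3 (0.74) is the highest. The set and the lists were chosen with earlier results of these data known, so nothing is read from this order.

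Plin2 is a known target of PPAR transcription factors and Hilpda of the hypoxia-inducible factor HIF1. Among the PPAR genes, Ppard was listed at 16.2 ± 2.00 FPKM with LPC and 20.4 ± 1.36 FPKM with vehicle (SD, n = 3 each; log2 change -0.32, limma adjusted p = 0.0521). It passed as lower without LPC replicate 1 (-0.41, adjusted p = 0.0354) and with GC and length trends removed (-0.39, adjusted p = 0.0054). Pparg stayed under the filter, at 0.73, 0.90 and 0.95 FPKM in LPC libraries, against 0.56, 0.44 and 0.70 FPKM in vehicle libraries. These groups did not overlap, and the ratio of the means was 1.52. Transcript levels do not measure the activity of PPAR or HIF1 proteins, which was not tested. Ppara did not exceed 0.03 FPKM in any library. Hif1a averaged 235 ± 29.4 FPKM with LPC and 282 ± 18.5 FPKM with vehicle (-0.27, adjusted p = 0.108), and passed as lower without LPC replicate 2 (-0.35, adjusted p = 0.0382). Its change was -0.17 without LPC replicate 3 (adjusted p = 0.243) and -0.16 with GC and length trends removed (0.124). Of 18 listed transcription factors that act on droplet genes 11 were tested, of which 0 rose and 1 fell (1 and 5 at an unadjusted p under 0.05): Tfeb, a regulator of lysosomal genes, averaged 6.13 ± 0.416 FPKM with LPC and 8.53 ± 0.296 FPKM with vehicle (-0.42, adjusted p = 0.0124). Tfeb did not pass without vehicle replicate 1 or 2 (adjusted p = 0.0621 and 0.0625). The shares of all tested genes that passed were 5.82% as higher and 7.91% as lower. By unadjusted p under 0.05, 1237 of the 10138 tested genes were higher and 1810 lower.

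The other known targets of these factors are set against the same shares of all tested genes, 5.82% higher and 7.91% lower. Their unadjusted counts are set against 1237 higher and 1810 lower of the 10138 tested genes. Of 19 listed PPAR targets outside the set 15 were tested, of which 1 rose and 0 fell (4 and 0 at an unadjusted p under 0.05), with a list median of 0.03. The gene that rose was Cpt1a, of mitochondrial fatty acid import, at 8.0 ± 0.438 FPKM with LPC and 5.80 ± 0.229 FPKM with vehicle (log2 change 0.40, limma adjusted p = 0.0145). It did not pass when any 1 vehicle library was left out (adjusted p = 0.0504 to 0.0609). Angptl4, a lipase inhibitor gene, did not pass (0.31, adjusted p = 0.0776). It was higher in every LPC library than in any vehicle library. So were Ucp2 (0.28, 0.0875), Acadvl (0.20, 0.143) and Acadl (0.07, 0.576), which also did not pass. Ehhadh (-0.20, 0.228) was lower in every LPC library. Of 19 listed HIF1 targets outside the set 17 were tested, of which 2 rose and 0 fell (6 and 2 at an unadjusted p under 0.05), with a list median of 0.17. The lactate transporter gene Slc16a3 averaged 46.8 ± 9.05 FPKM with LPC and 27.3 ± 1.21 FPKM with vehicle (0.74, adjusted p = 0.00248). The glucose transporter gene Slc2a1 averaged 56.1 ± 7.67 FPKM with LPC and 43.6 ± 1.80 FPKM with vehicle (0.35, adjusted p = 0.0367), and did not pass without LPC replicate 1 or any 1 vehicle library (0.0786 to 0.119), with quantile normalization (0.0604) or with GC and length trends removed (0.0523). Among those that did not pass, Ldha (0.32, adjusted p = 0.0675), Ddit4 (0.35, 0.0634) and P4ha2 (0.35, 0.0982) were higher in every LPC library than in any vehicle library. So were Bnip3l (0.18, 0.185) and Egln1 (0.18, 0.176), and 13.7% of all tested genes showed this pattern. P4ha1 (-0.31, 0.0548), Pdk1 (-0.27, 0.0712) and Ndrg1 (-0.19, 0.2) were lower in every LPC library, and Vegfa (-0.15), Egln3 (0.02) and Bnip3 (0.05) overlapped. The share of all tested genes with the lower pattern was not worked out.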

How the data were processed

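RNA for 6 libraries was sequenced on a BGISEQ-500, aligned to GRCm38 with Bowtie2 and given as FPKM by RSEM, per the labels' protocols; the sources used here give no tool versions. The authors deposited FPKM to 2 decimals for the same 18046 genes in each library. Read totals are not in the files; the stated depth is the number of reads at which values of 0.03 to 0.3 FPKM of genes with 1 transcript came nearest to whole reads (mean distance 0.180 to 0.185, against at least 0.237 with gene lengths shuffled), using GENCODE M21 lengths. Date-like symbols (24) were restored by gene identifier. Reads shared by several genes are split by RSEM's estimate. FPKM is relative to each library's total.

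The 10138 genes that reached 1 FPKM in at least 3 libraries were fitted with limma 3.58.1 (limma-trend) in R 4.3.3 on log2(FPKM + 1), group as the only term, with Benjamini-Hochberg adjustment over all of them; a gene passed at an adjusted p under 0.05. The fit was tested on made-up values of known change before use. The members and the lists were chosen with earlier results of these data known. The text names all members, each list gene that passed, 4 transcription factors and the 5 genes nearest to Plin2; other list genes were named after their values were seen. Alternatives were quantile normalization, median centring, no filter, a filter at a mean of 5 FPKM, a replicate block, 0.1 as pseudocount, each library left out, and removal of trends with GC share and length (98.7% of tested genes). Coordinates are those of GRCm38.p6. The list symbol Gpat3 was matched by identifier to Agpat9, its symbol in the files.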

Additional observations from a re-analysis of the deposited data

How the results depend on the processing

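Plin2 and Hilpda passed as higher with LPC under all 13 alternatives, with log2 changes of 1.008 to 1.152 and 0.66 to 0.94, and Mgll under 11 of 13, with 0.40 to 0.62; so 2 members passed with no filter or without LPC replicate 1, and no member passed as lower. Pnpla2 changed sign with quantile normalization (-0.004), with GC and length trends removed (-0.058) and in fits without 1 library (-0.047 to 0.044). Abhd5 changed sign with quantile normalization (0.058), median centring (0.017) and with GC and length trends removed (0.028). No scaling moved the median of all genes by over 0.1. Over all genes 1392 changed, 590 higher and 802 lower. The counts were 464 (236 and 228) with no filter, 2162 (888 and 1274) with GC and length trends removed, and 513 to 2026 (225 to 809 and 288 to 1217) without 1 library. The share of calls that were higher was 42.4%, 51.1% with quantile normalization and 53.1% with median centring. In the 7 wider lists 7 genes rose and 5 fell; the counts were 2 and 0 with no filter, 2 to 11 and 0 to 10 without 1 library, and falls numbered 1 with quantile normalization, 3 with median centring, 3 at a mean FPKM of 5 or more and 10 with GC and length trends removed. The cause of these shifts was not tested. With the replicate block 2841 genes changed (1180 higher, 1661 lower), and 16 list genes rose and 17 fell; Ppard (adjusted p = 0.011) and Hif1a (0.0195) then passed as lower. The labels do not say whether the numbers are pairs, and the main fit does not take them as such. Deviations of same-numbered libraries correlated at 0.02, 0.56 and 0.41, and those of differently numbered libraries at -0.5 to 0.06. Vehicle replicate 1 correlated best with LPC replicate 3 (0.06), so pairing was not settled. Depth limits G0s2 and Dgat2 most.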
